A study of Mus musculus with 6 samples.

Results

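The 9 complement genes C1qa, C1qb, C1qc, C2, C3, Cfb, Cfp, C3ar1 and C5ar1, taken by symbol from 32285 counted genes, were followed in 6 droplet single-cell RNA libraries from the colons of transplanted mice, together with 42 other complement genes. In 4 of them the cells were CD11b+ CD64+ macrophages of donor origin, sorted from mice given bone marrow alone (BM), from mice given bone marrow with spleen cells, which brings on graft-versus-host disease (GVHD), from wild-type (WT) recipients and from recipients labelled IL-34-/- (IL34KO). The other 2 are labelled as sorted donor T cells, of a WT and an IL34KO recipient group. GVHD is an attack of donor T cells on recipient tissue, and interleukin 34 is a ligand of CSF1R, a receptor macrophages need. The mouse strains, ages, conditioning, times and numbers of pooled animals are not given in the sources used here, nor which recipient cells remained. The libraries were made with 5′ and 3′ kits, and which library used which is not given, so a kit and a group cannot be told apart. Each group was 1 library, so no replicate error exists and no test was made.

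Complement is a cascade of plasma proteins that marks targets for uptake, calls in leukocytes and can pierce membranes. C1q, built from the chains encoded by C1qa, C1qb and C1qc, opens the classical pathway by binding antibody or dying cells. C2 supplies the protease of the classical C3 convertase and factor B (Cfb) that of the alternative one. Both convertases cut C3, the central component, and properdin (Cfp) stabilises the alternative one. The fragments released from C3 and C5 act through the receptors encoded by C3ar1 and C5ar1. Tissue macrophages are a main source of C1q, and the gut lining is exposed to complement made locally by myeloid, stromal and epithelial cells.

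Levels are in CPM, the UMIs (unique molecular identifiers, 1 for each captured transcript) of a gene scaled to the total UMIs of the same cells. Brackets hold exact 95% intervals, which cover counting error only. Cells were assigned to gates by lists of 10 marker genes. The myeloid gate held 2111 cells in BM, 2356 in GVHD, 4461 and 4849 in the WT and IL34KO macrophage libraries, and 8329 and 4787 in the WT and IL34KO T-cell libraries. Their median depth was between 6749 and 16841 UMIs. In these cells Itgam, which encodes CD11b, stood between 196.8 and 314.7 CPM and Fcgr1, which encodes CD64, between 87.2 and 116.4. The T-cell libraries went against their label, since myeloid-gated cells made up 59.2% and 55.9% of their filtered cells and T-gated cells 20.5% and 19.4%. Of the 5874 BM barcodes, 2502 also occurred in GVHD, 2486 of them with more UMIs there, and these were dropped from BM. Il34 was not lower in the libraries labelled IL34KO. Over all barcodes it was at 2.30 CPM (2.02 to 2.61) against 1.76 (1.51 to 2.03) in the WT macrophage library, and at 1.55 (1.30 to 1.84) against 1.18 (0.989 to 1.40) in the T-cell libraries. In epithelial-gated cells it was at 6.31 against 3.83 and at 4.12 against 3.22 CPM. The sources used here do not say what was deleted in Il34, so every direction below refers to libraries as labelled.

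The promoters of C1qb, C1qc and C3 are printed because, over the myeloid gate, C1q was lower and C3 higher in GVHD than in BM. Each stretch runs from 250 bases before to 50 after the gene's start in RefSeq's GRCm38.p6 (mm10) and is given 5′ to 3′ on the gene's own strand. Capitals mark letters that match a searched motif on either strand.
C1qb, minus strand of chr4:136886151-136886450: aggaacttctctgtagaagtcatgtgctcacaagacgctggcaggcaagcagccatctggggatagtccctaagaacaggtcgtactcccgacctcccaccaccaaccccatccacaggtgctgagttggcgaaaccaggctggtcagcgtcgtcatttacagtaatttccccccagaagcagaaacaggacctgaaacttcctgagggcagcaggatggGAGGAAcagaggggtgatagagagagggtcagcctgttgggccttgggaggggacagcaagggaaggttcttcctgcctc
C1qc, minus strand of chr4:136892865-136893164: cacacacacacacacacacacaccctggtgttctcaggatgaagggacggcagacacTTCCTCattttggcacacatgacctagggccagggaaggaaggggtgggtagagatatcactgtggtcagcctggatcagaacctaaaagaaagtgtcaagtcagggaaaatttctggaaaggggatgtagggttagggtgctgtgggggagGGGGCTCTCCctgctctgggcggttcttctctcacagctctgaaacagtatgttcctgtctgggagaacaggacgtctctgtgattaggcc
C3, minus strand of chr17:57228087-57228386: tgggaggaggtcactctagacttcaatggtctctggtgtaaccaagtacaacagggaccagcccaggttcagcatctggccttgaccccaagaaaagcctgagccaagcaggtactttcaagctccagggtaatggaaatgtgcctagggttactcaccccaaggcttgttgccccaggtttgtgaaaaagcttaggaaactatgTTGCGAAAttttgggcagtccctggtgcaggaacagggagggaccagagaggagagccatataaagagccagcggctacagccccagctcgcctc
The C1qb stretch holds the PU-box core GAGGAA at position -30 from RefSeq's start. The C1qc stretch holds the reverse complement of this core at position -193 and an NF-kB motif at position -41, also from RefSeq's start. C3 holds a match to the C/EBP motif TTGCNNAA at position -45. Of all 32851 promoters of this length, 28.3% hold the PU-box core on either strand, 10.8% the C/EBP motif and 8.46% the NF-kB motif. The interferon-stimulated response element (3.44% of promoters) and the gamma-activated site TTCNNNGAA (8.3%) had no match in the 6 promoters scanned. Among the other promoters, Cfp held 2 PU-box cores, C3ar1 held the AP-1 motif TGANTCA (7.81% of promoters) at position -22, and C5ar1 held none of the 6 motifs. No 2 matches in one promoter overlapped. A match is a description of the letters and not a binding site. C1qa, C2 and Cfb were not scanned.

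All 3 C1q genes lie on the minus strand of chromosome 4 of mm10, C1qb at 136880129 to 136886187, C1qc at 136889804 to 136893065 and C1qa at 136895917 to 136898803. Gaps of 3616 and 2851 bases separate them. These bounds come from the GENCODE annotation, whereas the promoters above use RefSeq's starts. The GENCODE C1qc reaches further upstream than RefSeq's start, so the NF-kB match at position -41 lies inside the GENCODE gene. The starts of C1qb differ as well. Cfb (chromosome 17, 34856374 to 34862518) and C2 (34862604 to 34898265) are also neighbours on 1 strand, 85 bases apart. The annotated gene Gm20547 overlaps both on the same strand but is not among the genes counted. Zbtb12, which is counted, overlaps C2 on the opposite strand. The effect of these overlaps on the C2 and Cfb counts was not tested.

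C1q transcripts were abundant in myeloid-gated cells of every library. C1qa stood at 2235 CPM (2218 to 2251) in BM, 1404 (1393 to 1414) in GVHD, 1299 (1290 to 1307) and 1076 (1068 to 1085) in the WT and IL34KO macrophage libraries, and 2018 (2007 to 2029) and 2033 (2018 to 2047) in the WT and IL34KO T-cell libraries. The BM library was highest, the IL34KO macrophage library was lowest, and only the 2 T-cell libraries overlapped in their counting intervals. In the same order C1qb was at 2790, 1866, 1863, 1613, 2648 and 2823 CPM, with overlap of GVHD with the WT macrophage library and of BM with the IL34KO T-cell library. C1qc was at 2115, 1417, 1046, 899 and, in the T-cell libraries, 1604 and 1751 CPM, with no overlap.

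The mix of the 3 chains varied little. C1qa gave between 29.95% and 32.2% of the C1q UMIs of myeloid-gated cells, C1qb between 39.1% and 44.95% and C1qc between 24.9% and 30.2%. C1qc's share was 29.6% (29.4 to 29.8) in BM and 30.2% (30.1 to 30.4) in GVHD, against 24.9% to 26.5% in the other 4 libraries. These are shares of UMIs and not of molecules per transcript length. After every cell was thinned to 2000 UMIs, all 3 chains were detected together in 81.95% of BM cells, 73.5% of GVHD cells, 77.4% and 77.2% of cells in the WT and IL34KO T-cell libraries, but in 52.6% and 45.4% in the WT and IL34KO macrophage libraries. Cells with no C1q UMI made up 14.1% and 18.7% of those last 2 libraries and between 2.81% and 4.38% of the other 4.

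C2 was scarce in myeloid-gated cells. BM held 13.9 CPM (12.6 to 15.3; 423 UMIs in 239 cells), and the other 5 libraries held between 1.31 CPM (1.01 to 1.67) in GVHD and 3.19 (2.76 to 3.67) in the IL34KO macrophage library. The BM interval overlapped none of the others. A C2 UMI was found in 3.13% of thinned BM cells (2.42 to 3.99) and in between 0.317% and 0.475% of those elsewhere, which is near the level of single UMIs.

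C3 and Cfb were low in BM and high in the 5 other libraries. C3 stood at 52.0 CPM (49.5 to 54.7) in BM and 280.5 (275.9 to 285.2) in GVHD. It was at 392.7 CPM (388.0 to 397.5) in the WT macrophage library, 471.3 (465.9 to 476.8) in the IL34KO one, 433.8 (428.5 to 439.1) in the WT T-cell library and 430.1 (423.4 to 436.8) in the IL34KO one. Only the 2 T-cell libraries overlapped. Cfb was at 40.3 CPM (38.1 to 42.7) in BM, 392.7 (387.3 to 398.2) in GVHD, 610.7 (604.8 to 616.7) and 745.2 (738.4 to 752.1) in the WT and IL34KO macrophage libraries, and 554.0 (548.1 to 560.0) and 625.1 (617.0 to 633.2) in the T-cell ones. No 2 libraries overlapped. In thinned cells Cfb was detected in 4.97% of BM cells (4.06 to 6.02) and in between 47.7% and 61.6% of cells of the other libraries. Without thinning these shares were 22.3% and between 81.2% and 88.4%.

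Properdin was the steadiest of the 9 genes. Cfp stood at 131.7 CPM (127.6 to 135.8) in BM and 133.2 (130.1 to 136.5) in GVHD. The macrophage libraries held 154.0 (151.1 to 157.0) in WT and 141.3 (138.3 to 144.3) in IL34KO, and the T-cell libraries 153.3 and 154.6. Its highest level was 1.17 times its lowest, whereas that ratio was 18.5 for Cfb, 10.6 for C2 and 9.06 for C3. Over the 5 libraries other than BM the ratio was 1.16 for Cfp, 1.9 for Cfb, 2.44 for C2 and 1.68 for C3.

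Both receptor genes were highest in BM. C3ar1, the receptor for C3a, stood at 430.3 CPM (423.0 to 437.8) in BM, 158.6 (155.1 to 162.1) in GVHD, 85.0 (82.8 to 87.2) and 65.2 (63.2 to 67.3) in the WT and IL34KO macrophage libraries, and 122.1 (119.3 to 124.9) and 110.2 (106.9 to 113.7) in the T-cell libraries. None of these intervals overlapped. C5ar1, the receptor for C5a, stood at 333.9 CPM (327.5 to 340.5) in BM, 96.2 (93.5 to 98.95) in GVHD, 78.7 (76.6 to 80.9) and 77.7 (75.5 to 79.9) in the WT and IL34KO macrophage libraries, and 63.9 (61.9 to 66.0) and 72.4 (69.7 to 75.2) in the T-cell libraries. Only the 2 macrophage libraries of the IL-34 comparison overlapped.

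**Figure D1:**
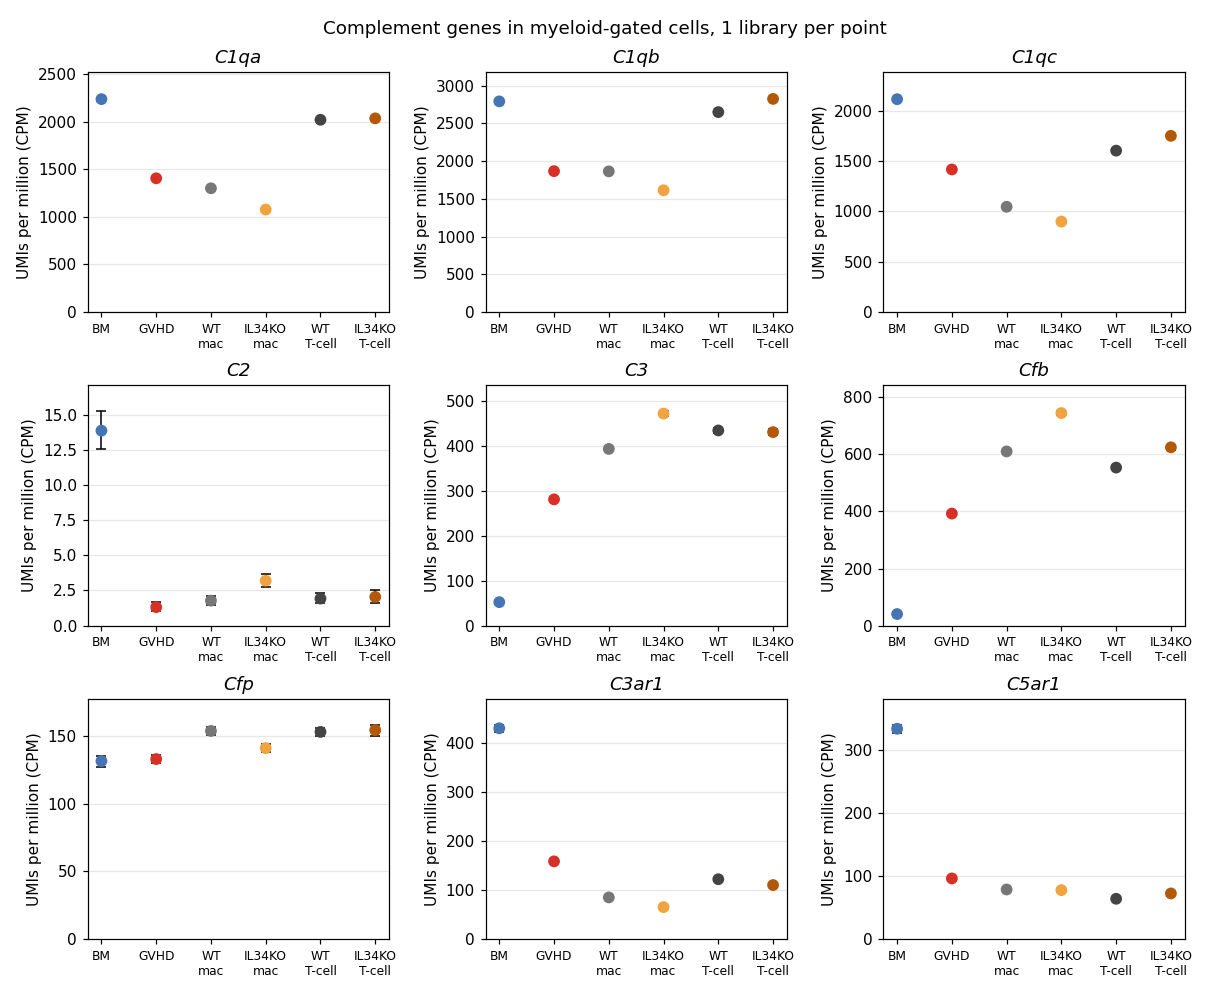
Level of each gene in myeloid-gated cells of each library, in CPM on axes starting at 0. Each point is 1 library, mac stands for macrophage library, and bars are exact 95% counting intervals. BM sits apart from the other 5 libraries for C2, C3, Cfb, C3ar1 and C5ar1, while Cfp is nearly level.

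The first comparison asked how the macrophages of GVHD mice differ from those of mice given marrow alone. C3 was 5.39-fold higher (5.12 to 5.68) and Cfb 9.74-fold higher (9.19 to 10.3) in GVHD. C3ar1 was 2.71-fold lower (2.64 to 2.79), C5ar1 3.47-fold lower (3.35 to 3.59), C2 10.6-fold lower (8.15 to 13.9) and C1qa 1.59-fold lower (1.58 to 1.61). C1qb and C1qc lay just inside the fold of 1.5 used for counting, at 1.495-fold (1.481 to 1.509) and 1.492-fold (1.477 to 1.508) lower, and Cfp had a ratio of 1.01 (0.973 to 1.05). All 9 genes reached 5 CPM in one of the libraries, the floor for being measured, and C2 did so only in BM. Of them 2 were at least 1.5-fold higher and 4 lower, against 33.8% of all 9835 measured genes in either direction, 15.2% higher and 18.6% lower. The median log2 ratio of the 9 genes was -0.58, and that of all measured genes -0.00659. With the shared barcodes left in BM, the log2 ratio of C3 went from 2.43 to 1.80 and that of Cfb from 3.28 to 2.22. The shared barcodes were 60.0% of those of GVHD. With them dropped from GVHD too, the log2 ratio of C5ar1 went from -1.80 to -1.47. In cells thinned to 2000 UMIs that of C2 went from -3.40 to -4.15. C2 had a finite ratio under 14 alternatives and the other genes under 15. In bulk sums of this kind, fewer cells of a type and less RNA per cell cannot be told apart.

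**Figure D2:**
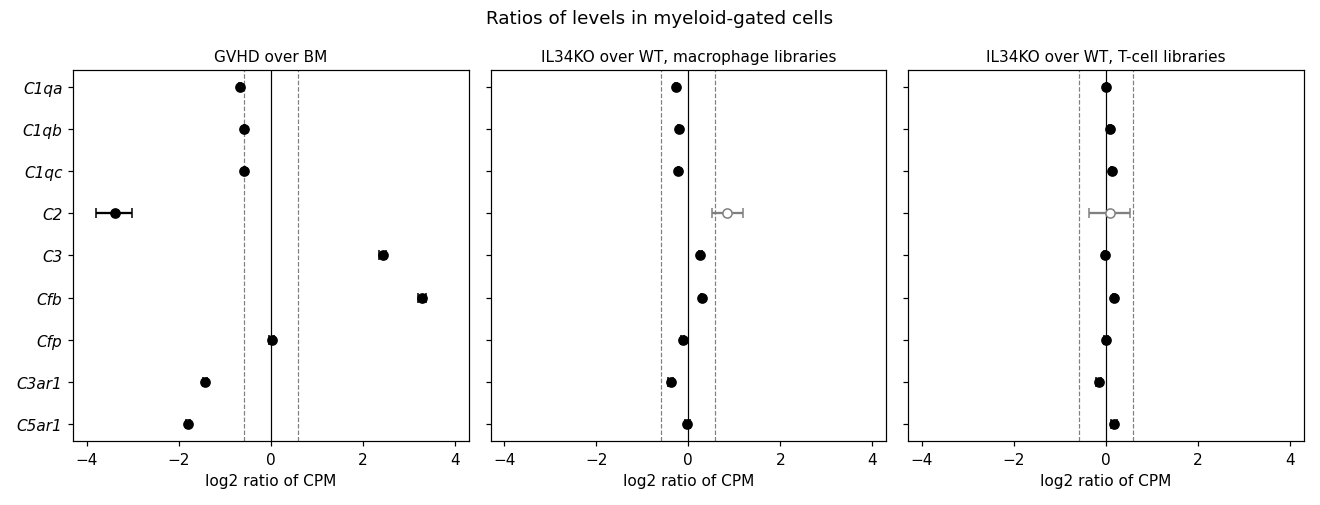
Log2 ratio of the level in myeloid-gated cells for GVHD over BM and for libraries labelled IL34KO over WT, with exact 95% counting intervals. Dashed lines mark 1.5-fold, and open grey points are below 5 CPM in both libraries. C3 and Cfb lie far to the right and C2, C3ar1 and C5ar1 far to the left in GVHD over BM only, while all measured genes lie inside the dashed lines in both IL34KO comparisons.

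The mix of myeloid cells also differed between these 2 libraries. A list of 10 resident macrophage genes (among them Mrc1, Cd163 and Mertk) led in 83.5% of BM cells and 12.3% of GVHD cells, and a list of 10 monocyte genes (among them Ly6c2 and Ccr2) led in 6.73% and 66.3%. These are ranges along marker counts rather than cell types, and 154 of the 1763 BM and 47 of the 290 GVHD cells led by the resident list had only 3 of its markers. Summed over the myeloid gate, the resident list stood at 2750 CPM in BM and 846 in GVHD, and the monocyte list at 1150 and 2870. Of the lists of other cell types, the epithelial one summed to 24.7 CPM in BM and 35.2 in GVHD and the stromal one to 38.3 and 8.41, with UMIs for all 10 of 10 markers in each. The endothelial list summed to 72.4 in BM and 34.7 in GVHD, where Cldn5 was at 0, and the T list to 14.5 and 10.3. The part of these other cells in the results was not tested.

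Within cells led by the resident list, the C1q chains were closer between the libraries than over the whole gate. C1qa was at 1898 CPM in GVHD and 2368 in BM (ratio 0.801, 0.784 to 0.820), C1qb at a ratio of 0.827 and C1qc of 0.848. C3 was 5.81-fold higher in GVHD (5.33 to 6.32) and Cfb 11.3-fold (10.4 to 12.3) within these cells. C3ar1 and C5ar1 had ratios of 0.425 (0.396 to 0.455) and 0.384 (0.353 to 0.417) there. Of the 9 genes 2 were higher and 3 lower, against 14.9% and 17.5% of all measured genes.

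Within cells led by the monocyte list (142 in BM, 1563 in GVHD), C1qa was at 1343 CPM in GVHD and 1035 in BM, a ratio of 1.30 (1.24 to 1.36), so its direction was the opposite of that in the whole gate. C1qc had a ratio of 1.23 (1.18 to 1.29) and C1qb of 0.948 (0.919 to 0.979). C3 was 1.54-fold higher (1.40 to 1.71) and Cfb 3.03-fold higher (2.69 to 3.43) in GVHD, and C5ar1 had a ratio of 0.361 (0.329 to 0.396). C3ar1 stood at 156.7 CPM against 202.9. Of the 8 genes measured here 2 were higher and 1 lower, against 11.6% and 12.2% of all measured genes. In the cells that no list led, C3 was 4.11-fold (3.34 to 5.13) and Cfb 5.45-fold (4.42 to 6.78) higher, while C1qc had a ratio of 1.01 (0.961 to 1.06).

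**Figure D3:**
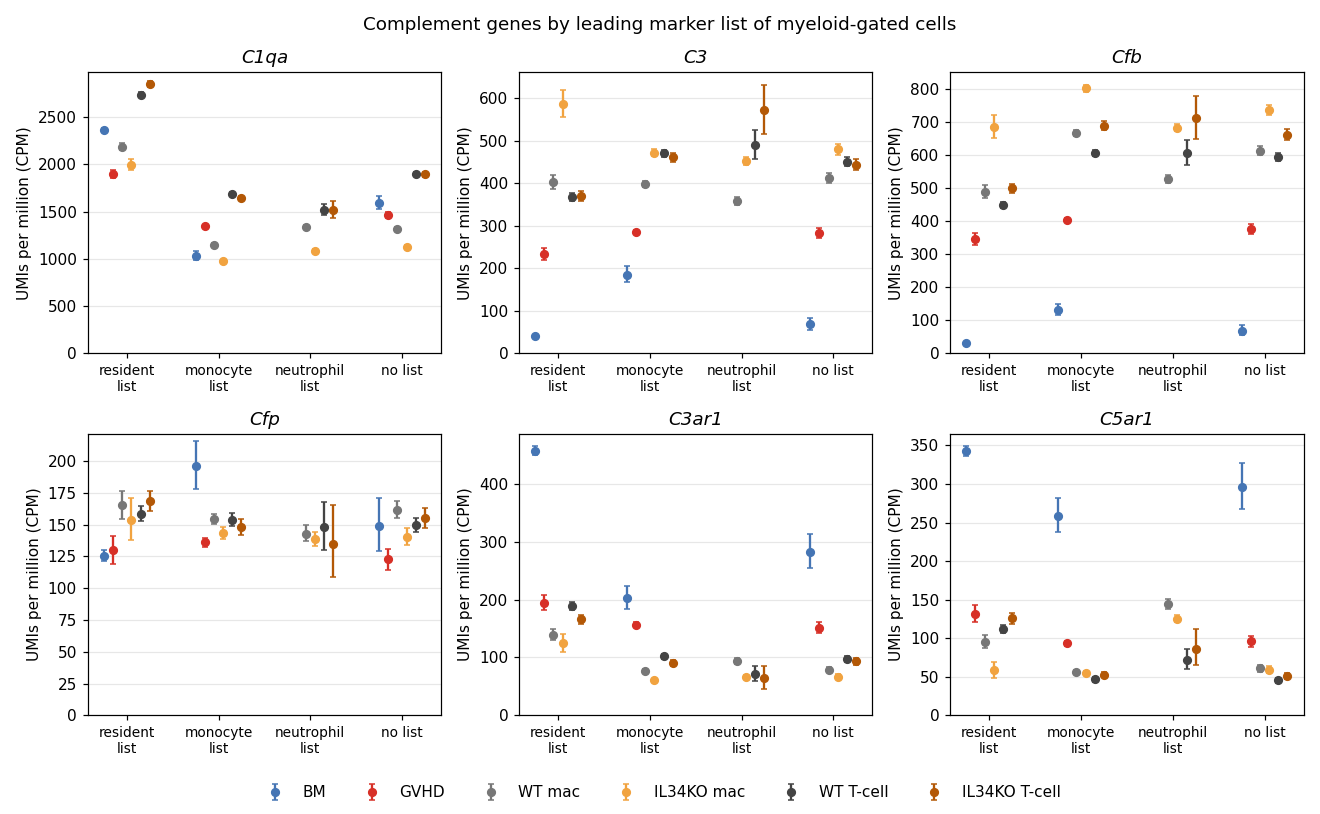
Level of 6 of the genes in myeloid-gated cells, grouped by the marker list that led in a cell, for each library with at least 50 such cells. Points are levels in CPM on axes starting at 0, and bars are exact 95% counting intervals. C3 and Cfb are lowest and C3ar1 and C5ar1 highest in BM under every list shown for it, and C1qa is highest under the resident list in every library.

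Every library had its highest C1q levels in the cells led by the resident list, at 1898 to 2850 CPM for C1qa against 976.2 to 1691 in cells led by the monocyte list. C3ar1 followed the same order in all 6 libraries, for instance 188.7 against 101.8 CPM in the WT T-cell library. Cfb ran the other way, with 30.7 against 132.7 CPM in BM and 448.7 against 605.5 in the WT T-cell library. C5ar1 was at 144.1 and 125.3 CPM in the cells of the WT and IL34KO macrophage libraries in which a list of 10 neutrophil genes led, above 56.6 and 55.2 in the cells led by the monocyte list. These cells also held C1qa, at 1336 and 1085 CPM, so they are named here only by their leading list.

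C3 and Cfb had like patterns. Over 24 units of at least 50 cells (a library and a leading list, from the 6 libraries), the Pearson r of their log2(CPM + 1) was 0.979. Among 7027 ranked genes other than the 9 genes, Bst1 (r = 0.975 with C3 and 0.972 with Cfb) came first for each. Mitochondrial, ribosomal, immunoglobulin, T-cell receptor, Gm and Rik genes were not ranked, whereas the other complement genes were not left out. Units of 1 library share its depth and preparation, so these values are descriptions. The BM units lay below every other unit in C3 and Cfb and above every other unit in C3ar1. No r in this paragraph was computed without BM, so how far BM sets these values is not known. Cells with a C3 UMI also held Cfb more often than cells without. The shares were 16.8% against 4.07% in BM, 57.8% against 41.3% in GVHD, and 66.1% against 48.4% in the WT macrophage library, all in thinned cells. C3 had an r of -0.604 with C3ar1 and -0.50 with C5ar1 over the same units, and the 2 receptor genes had 0.86 with each other. Nearest to the mean of the C1q chains were Ptgs1 (r = 0.936), Apoe (0.934) and Itm2b (0.934). Nearest to C3ar1 were Fbxo30 (0.967), Abl2 and Rgl1, and to C5ar1 Il10 (0.952), Zeb2 and Tpst2. Tlr1 (0.865) led for C2 and Lyz1 (0.788) for Cfp.

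Other complement genes of the myeloid gate differed between GVHD and BM as well. Of 42 such genes 12 were measured, 4 of them at least 1.5-fold higher and 5 lower, with a median log2 ratio of 0.0577, beside 15.2% higher and 18.6% lower of all measured genes. Among the proteases and components that open the cascade, C1ra was 2.62-fold higher (2.29 to 3.01; 22.5 against 8.59 CPM) and C4b 2.85-fold higher (2.60 to 3.12; 55.2 against 19.4 CPM). Itgb2, the beta chain of complement receptors 3 and 4, was 2.01-fold higher (1.94 to 2.08). C4b has a near-identical copy, C4a, and C1ra and C1s1 have close paralogs, so their counts are uncertain where reads fit both. The recognition molecules Fcna (ratio 0.240) and Colec12 (0.0870), the terminal component C6 (0.248), the second C5a receptor C5ar2 (0.249) and Cd93 (0.286) were lower. Cfd, the factor D protease, was higher, but 446 of its 476 UMIs in GVHD came from 1 cell. The integrin chains Itgam and Itgax were within 1.5-fold, at ratios of 1.37 and 1.16.

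The second comparison asked what loss of IL-34 in the recipient does to macrophages. In myeloid-gated cells of the macrophage libraries 0 of the 8 measured genes were 1.5-fold apart, against 2.55% of 9239 measured genes. The library labelled IL34KO had lower C1qa (ratio 0.829, 0.820 to 0.837), C1qb (0.866, 0.859 to 0.873), C1qc (0.860, 0.850 to 0.869) and C3ar1 (0.767, 0.737 to 0.799). It had higher C3 (1.20, 1.18 to 1.22) and Cfb (1.22, 1.20 to 1.24). C5ar1 had a ratio of 0.987 (0.949 to 1.03) and Cfp of 0.917 (0.891 to 0.944). These differences exceeded counting error for all of these genes but C5ar1, and no animal spread is known to set them against. The share of all measured genes beyond counting error was not computed, here or for the comparisons below. C2 was below 5 CPM in both libraries, with 195 UMIs in IL34KO and 119 in WT and a ratio of 1.80 (1.43 to 2.28), and 18 of the 195 UMIs came from 1 cell.

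The cell mix differed here too. The neutrophil list led in 33.6% of the myeloid-gated cells of the IL34KO library and 20.5% of those of WT, and summed to 5840 against 3050 CPM. The resident list led in 3.90% against 8.72% and summed to 475 against 699 CPM. Within cells led by the monocyte list the ratios were 0.848 for C1qa, 1.19 for C3, 1.20 for Cfb and 0.791 for C3ar1. With the cells led by the neutrophil list left out of the gate, the log2 ratio of C5ar1 was -0.124, against -0.0191 with them. Within cells led by the resident list (189 in IL34KO, 389 in WT) C5ar1 was at 58.6 against 95.7 CPM (ratio 0.612, 0.501 to 0.742) and C3 at 587.4 against 402.9 (1.46, 1.36 to 1.56), and 2 of 9 genes, C5ar1 and C2, were 1.5-fold apart, against 11.1% of all measured genes. The C2 value rests on 30 UMIs in IL34KO, where alone it passed 5 CPM, and 18 of these UMIs came from 1 cell. The summed epithelial list stood at 156 against 114 CPM in these myeloid-gated cells, with 10 of 10 markers present, and its part in the ratios was not tested.

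In myeloid-gated cells of the T-cell libraries 0 of 8 measured genes were 1.5-fold apart, against 1.23% of 9187 genes. C1qa had a ratio of IL34KO over WT of 1.01 (0.998 to 1.02), C3 of 0.992 (0.972 to 1.01) and Cfp of 1.01 (0.976 to 1.04), with intervals that held 1. C1qb (1.07), C1qc (1.09), Cfb (1.13, 1.11 to 1.15) and C5ar1 (1.13, 1.08 to 1.19) were higher and C3ar1 (0.903, 0.868 to 0.938) lower beyond counting error. Cfb was thus higher and C3ar1 lower in the IL34KO library of each pair. Of the other complement genes 10 were measured in each pair. In the macrophage libraries Cd93 (0.631), Fcna (0.397) and Cfd were lower and C1s1 (1.62, from 4.32 to 7.01 CPM) higher, while none was 1.5-fold apart in the T-cell libraries. C1s1 passed 5 CPM only in IL34KO. For Cfd, 1023 of the 1048 UMIs of WT came from 1 cell.

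Outside the myeloid gate the 9 genes split into different groups. Counted over the myeloid, epithelial and stromal gates of all libraries, myeloid-gated cells held 99.8% of the UMIs of C1qa and C1qb, 99.9% of those of C1qc and C3ar1, 99.8% of those of C5ar1, 99.7% of those of Cfp, 98.7% of those of Cfb and 96.5% of those of C3. C2 was the exception, with 62.7% in myeloid-gated, 30.5% in epithelial-gated and 6.82% in stromal-gated cells. These shares rest on many more myeloid than other cells.

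Epithelial-gated cells (287 and 694 in the WT and IL34KO macrophage libraries, 834 and 790 in the T-cell ones) carried more C2 than myeloid-gated cells of the same libraries. C2 stood at 12.9, 13.3, 9.47 and 12.1 CPM there, between 416% and 731% of the myeloid level. The C1q chains stood at 0.922% to 1.66% of their myeloid level. The summed myeloid marker list stood at 1.32% to 1.73% of its own, a share that the gate itself limits, and the part of RNA from myeloid cells in these values was not tested. C3 reached 5.13% to 7.33% and Cfb 5.90% to 7.85% of their myeloid levels, or 22.1 to 33.3 and 38.6 to 49.1 CPM. In thinned epithelial-gated cells a Cfb UMI was found in 8.16% to 11.8%, and a C1qa UMI in 3.59% to 5.53%. Cfp stood at 2.05% to 2.32% of its myeloid level, C3ar1 at 0.853% to 2.16% and C5ar1 at 0.889% to 1.85%. In T-gated cells of the WT and IL34KO T-cell libraries C1qa stood at 2.71% and 1.69% of its myeloid level and Cfb at 1.92% and 1.32%.

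Epithelial-gated cells showed 0 of 6 measured genes 1.5-fold apart between IL34KO and WT in the macrophage libraries (background 5.63%) and 0 of 6 in the T-cell libraries (background 4.85%). With every cell weighted equally, which also lifts other genes past 5 CPM, the counts were 3 of 9 and 6 of 7 measured genes. The share of all genes called under this weighting was not computed, so these counts have no background and are no result about complement genes. None of the 3 was among the 6 genes measured in summed UMIs of the macrophage libraries, whereas C1qa, C1qb, C1qc, C3 and Cfb were among those called in the T-cell libraries. Beyond counting error in summed UMIs were C1qc in the macrophage libraries (1.46, 1.11 to 1.94) and Cfb in the T-cell libraries (1.27, 1.11 to 1.46). The direction of C1qc turned with cells weighted equally, from a log2 ratio of 0.55 to -0.20. C2 had ratios of 1.03 (0.798 to 1.33) and 1.28 (0.960 to 1.71). Of the other complement genes 2 of 7 measured were higher and 1 lower in the macrophage libraries, and 1 of 6 higher and 1 lower in the T-cell libraries, beside the same backgrounds of 5.63% and 4.85%. The integrin chains Itgam (5.20 against 3.17 CPM; ratio 1.64, 1.02 to 2.73) and Itgax (5.34 against 3.30 CPM; 1.62, 1.01 to 2.66) were higher in IL34KO in the macrophage libraries. In the same cells the summed myeloid list stood at 320 CPM in IL34KO and 263 in WT, and the neutrophil list at 126 and 38.2. The part of leukocyte RNA in the integrin values was not tested. The surface inhibitor Cd46 (5.82 against 3.60 CPM; 1.62, 1.03 to 2.54) was higher in IL34KO in the T-cell libraries. Itgam, Itgax and Cd46 passed 5 CPM only in IL34KO, where they were high, so the floor favoured these calls. Cd55, another inhibitor on the cell surface, was at 33.5 CPM in IL34KO and 51.8 in WT in the macrophage libraries (ratio 0.647, 0.564 to 0.742) and at 56.0 and 62.0 in the T-cell ones. The soluble inhibitor Clu was at 11.8 against 23.0 CPM in the T-cell libraries (0.511, 0.400 to 0.649), where 24 of 97 and 66 of 243 UMIs came from 1 cell each.

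Stromal-gated cells were few, 89 in BM and 67 in the WT T-cell library being the only sets of at least 50. C3 there stood at 754.3 CPM (694.8 to 817.6) in BM and 4322 (4061 to 4595) in the WT T-cell library, or 1450% and 996% of the myeloid level of the same library. C2 stood at 30.6 (19.6 to 45.5) and 135.5 (92.7 to 191.2) and Cfb at 98.1 (77.4 to 122.6) and 431.8 (352.1 to 524.1). The other 4 libraries had 10, 6, 19 and 46 such cells with 242, 108, 388 and 679 C3 UMIs. C1qa stayed at 1.31% and 2.94% of its myeloid level, with the summed myeloid list at 1.03% and 2.52%. The 2 libraries are labelled as sorted for different cells and as different transplant groups, so their difference has no comparison of its own. Stromal-gated cells also carried the inhibitor Serping1 (1878 and 2900 CPM), C1s1 (907.2 and 774.6), C1ra (513.5 and 495.3), C4b (610.3 and 452.9) and Cd55 (374.6 and 321.7), whereas Serping1 was at most 2.82 CPM in myeloid-gated cells.

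**Figure D4:**
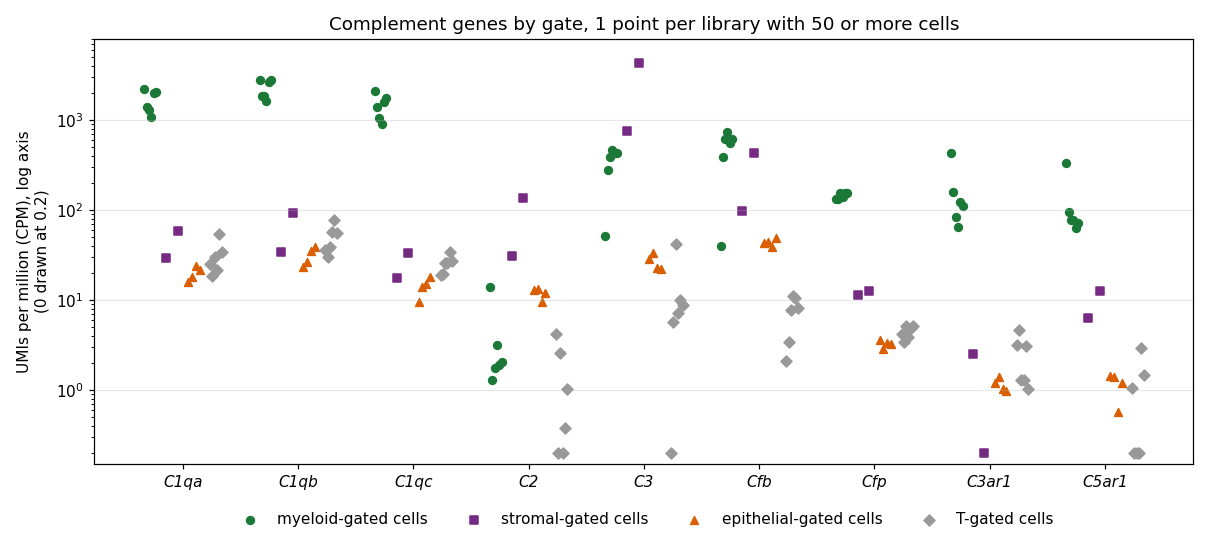
Level of each gene by gate, on a log axis of CPM with values of 0 drawn at 0.2. Each point is 1 library with at least 50 cells in that gate. The C1q chains, Cfp and both receptor genes sit high only in myeloid-gated cells, C3 is highest in stromal-gated cells, and C2 is lower in myeloid-gated than in epithelial-gated cells in the 4 libraries that have both.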

How the data were processed

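The deposited values are raw UMI counts per gene and cell barcode, made by the authors with Cell Ranger 7.0.1 on mm10, per the submitters' processing notes. The 9 genes and all lists were chosen with earlier results of these data known. Cells had 500 or more detected genes and no more than 10% mitochondrial UMIs, after BM barcodes also seen in GVHD were dropped. A cell took the gate with the most detected markers of 10. It needed at least 3, and at least 2 times those of every other of 6 gates. This was meant to leave out mixed droplets, but how many remained was not counted. No doublet caller was run. Within the myeloid gate, cells took the leading of 4 lists (at least 3 markers, ties left unassigned). UMIs were summed per library and gate and divided by all UMIs of those cells. Ratios were scaled by these totals, with exact binomial intervals conditional on their sum, and shares have Clopper-Pearson intervals. Genes reaching 5 CPM in one of a pair counted as measured and a ratio of 1.5 as a difference. This favours a call for genes that reach the floor in only 1 library of a pair. A gate in a library needed 50 cells. A count of 0 allows up to 3 counts. Total UMIs per library were between 43660889 and 114425913. Named were all 9 genes, the other complement genes past 1.5-fold, and the 3 genes with the most similar pattern. The calculation was tested on simulated counts that held counting error only, without spread between cells or libraries. This checks the code and not how well the intervals suit these data. Alternatives covered filters, gates, floors, thinning, cell weighting and the scalings of edgeR 4.0.16 and DESeq2 1.42.0 (R 4.3.3), from which no test was taken. Python 3.11.15, NumPy 2.4.6, SciPy 1.17.1, pandas 2.3.3 and matplotlib 3.10.9 were used. An item of the complement list is not reported here.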

Additional observations from a re-analysis of the deposited data

Results flagged for a closer look

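For 4 complement genes the ratio of IL34KO over WT in myeloid-gated cells lay on opposite sides of 1 in the macrophage and the T-cell libraries, with counting intervals that left out 1 in each. The difference between the pairs was not tested, since each group is 1 library. How many of all measured genes meet this rule was not counted, so the count of 4 is not shown to be particular to complement genes. C1qb had a ratio of 0.866 in the macrophage libraries and 1.07 in the T-cell libraries. For C1qc the ratios were 0.860 and 1.09. C1ra had ratios of 1.09 and 0.892, and Itgax of 1.05 and 0.965.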

How the results depend on the processing

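No paired analysis was possible because each group is 1 library. The number of the 9 genes at least 1.5-fold apart between GVHD and BM, 6, was between 5 and 8 under the alternatives run. C1qb and C1qc sit at the threshold and crossed it in 4 and 5 of 15 alternatives. The count of 0 between IL34KO and WT in myeloid-gated cells held in the T-cell libraries under all alternatives run and became 1 (C2) in the macrophage libraries with no expression floor. In epithelial-gated cells of the macrophage libraries the count of 0 became 1 with a looser cell filter, a gate margin of 3 times, a minimum of 5 markers or the top 5% of cells by UMIs left out, 2 with thinned cells and 3 with cells weighted equally, where 8 and 9 genes were measured in place of 6 and none of the 3 was among those 6. For epithelial-gated cells of the T-cell libraries it became 1 with a stricter cell filter, thinned cells or no expression floor, 3 with a gate margin of 1 marker and 6 with cells weighted equally. The cause was not tested. Shares of all genes called were not computed under the alternatives, so the counts given for them have no background. Of 486 single ratios under alternatives, 382 stayed within their counting interval and 104 moved beyond it, 12 of them by over 1.5-fold. Of called values 0 changed sign. The settings that change only the expression floor cannot move a ratio, so they count among the 382 by design. The 15 alternatives for C1qb and C1qc also include these settings. Of 37 ratios, 21 kept 1 direction under every alternative. C1qa in epithelial-gated cells of the T-cell libraries ranged from -0.598 to 1.10 (log2). Other scalings shifted all ratios by at most 0.0187 (log2) in GVHD against BM and by -0.0872 in epithelial-gated cells of the T-cell libraries. Leaving out the cells led by the neutrophil list was chosen after seeing the data. Depth limits C2, with between 66 and 195 UMIs in the myeloid-gated cells of the 5 libraries other than BM.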
